A study of Mus musculus with 24 samples.

Results

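The atrioventricular (AV) node of the mouse fetus was compared with working myocardium at E17.5, late in gestation (E, embryonic day). The comparison takes the 12 arrays of that stage, 6 per tissue, out of 24 in the series. AV node cells came from Tbx3BAC-Egfp fetuses, in which enhanced green fluorescent protein (GFP) is read from a bacterial artificial chromosome carrying the Tbx3 locus. Working myocardium came from NppaBAC336-Egfp fetuses, in which the same protein is read from the Nppa locus. The labels give normal development for both groups and no treatment. The GFP-positive tissue of dissected hearts was pooled for each sample and dissociated, and 5000 cells were sorted by flow cytometry. Their RNA went through 2 rounds of linear amplification and biotin labelling before hybridization to an Illumina mouse BeadChip. The labels number the 6 samples of a group as biological replicates and do not give the number of hearts behind each. Tissue and reporter line changed together, so they cannot be told apart here. The remaining 12 arrays, AV canal and working myocardium at E10.5 from the same 2 lines, were used only to set the E17.5 difference of a gene beside its earlier difference.

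The AV node delays the impulse between atria and ventricles and can fire on its own. In slow-conducting nodal tissue the T-box repressors Tbx3 and Tbx2 hold down the genes of the fast-conducting chamber program, among them the atrial natriuretic peptide gene Nppa and the gap junction genes Gja5 and Gja1. Nkx2-5 and Tbx5 act as activators of the same genes, and chamber muscle adds dense sarcomeres, calcium stores and mitochondria as it matures. The fetal node lies next to the valve cushions and the fibrous AV ring, both mesenchymal and rich in matrix.

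Levels are given throughout as normalized log2 intensity of the probe that stands for a gene, and differences as AV node minus working myocardium on the same scale, ± the standard error of the fit (n = 6 arrays per group). Adjusted p-values are limma's moderated test with Benjamini-Hochberg correction over 46632 probes, and a gene was called at an adjusted p under 0.05. Log2 levels of different genes are not comparable, because each probe has its own brightness. Mean raw intensity was 276 to 432 on AV node arrays (median 349) and 267 to 436 on working arrays (median 386). Between 33.2% and 37.0% of probes lay above background on AV node arrays, and between 30.0% and 37.2% on working arrays. The number of arrays limits the precision.

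The samples were checked against cell type markers. All 10 cardiomyocyte markers were above background on every array of at least 1 group, and 9 of the 10 were called lower in the AV node (median difference -3.20). That median was -4.03 in replicates 1 to 3 alone and -2.28 in replicates 4 to 6 alone. Their summed intensity ran from 11715 to 50767 on AV node arrays and from 116066 to 136273 on working arrays. AV node arrays 1 to 3 lay lowest (14644, 17312 and 11715) and AV node arrays 4 to 6 higher (35763, 50767 and 48580), all 6 below every working array. Of 12 markers of fibroblasts and cushion mesenchyme, 11 were called higher in the AV node and none lower (median difference 2.51). Their sum was 52057 to 62050 on AV node arrays, against 8609 to 26587 on working arrays, with no overlap. The only marker of that list not called, Tcf21, was below background on all 12 arrays. The AV node samples, labelled as myocardium, thus held RNA of mesenchymal genes beside that of cardiomyocyte genes. Fewer cells of a type and less RNA per cell cannot be told apart in such bulk samples, and the part of the mesenchymal or the cardiomyocyte share in each gene's difference below was not tested.

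Working arrays 1 and 4 stood apart as well. Erythroid markers summed to 346 to 1040 on AV node arrays and to 2375 to 25375 on working arrays, where arrays 1 and 4 had 22846 and 25375 and the other 4 at most 6103. Leukocyte markers summed to 434 to 759 on AV node arrays and to 3109 to 12814 on working arrays, and epicardial markers to 722 to 1420 on AV node arrays and 3345 to 11336 on working arrays. Working arrays 1 and 4 were the highest for both lists. All 5 Schwann cell and neural crest markers with a probe lay close to background, with sums of 306 to 326 on AV node arrays and 305 to 341 on working arrays. Replicates 4 to 6 also had the lower mean raw intensity in both groups. Values were therefore recomputed in replicates 1 to 3 alone, in replicates 4 to 6 alone and without working arrays 1 and 4. List counts that moved by over 1.5 times are given beside the list, and so are most calls of single genes lost in these subsets. Of the genes named below without such a remark, Cacnb2, Nusap1 and Scn7a lost their calls in replicates 1 to 3 alone. In replicates 4 to 6 alone, Ccnd2, Cenpe, Cnn1, Col4a1, Cplx1, Hbb-bs, Hbb-bt, Hey2, Kcnj3, Nusap1, Plvap and Tagln lost theirs.

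**Figure D1:**
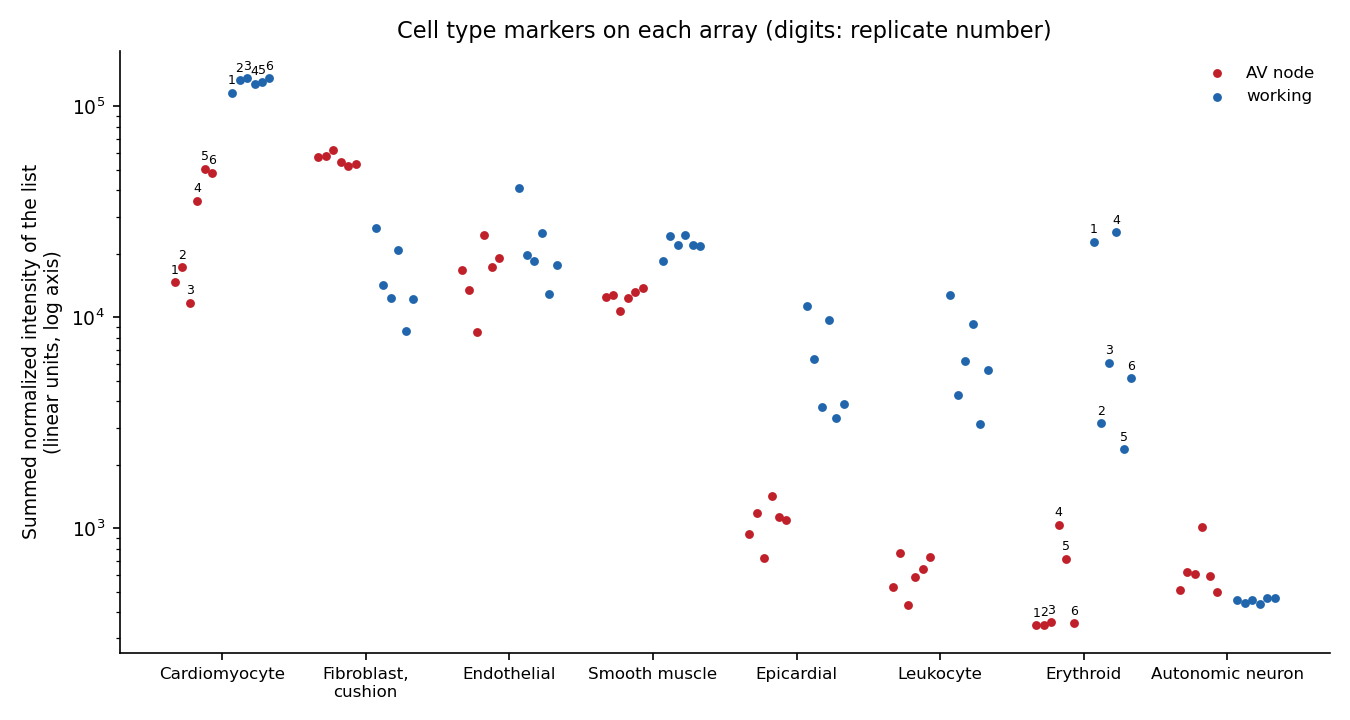
Summed normalized intensity (linear units on a log axis) of 8 marker lists on each E17.5 array, AV node on the left of each pair and working myocardium on the right, 1 point per array, with replicate numbers for 2 lists. AV node arrays 4 to 6 (35763 to 50767) exceed AV node arrays 1 to 3 (11715 to 17312) for cardiomyocyte markers, and working arrays 1 and 4 exceed the other working arrays for erythroid markers.

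Arrays of the same group were more alike than arrays of different groups. Over the 11795 probes above background on all 12 arrays, the leading principal component held 73.6% of the variance. Pairs of arrays correlated over these probes at 0.970 to 0.986 within the AV node, 0.940 to 0.993 within working myocardium and 0.825 to 0.931 between them. Of 46632 probes, 4443 were called higher in the AV node (9.53%) and 4135 lower (8.87%). At least 2-fold differences were found for 1152 of the higher probes (2.47% of all) and 1262 of the lower ones (2.71%). With 1 probe per gene, 2532 of 17711 genes were higher (14.3%) and 2507 lower (14.2%). Among the 8838 genes above background on all 6 arrays of at least 1 group, those shares were 25.8% and 24.7%. Counts of called genes per list below are to be read beside these shares. The median gene difference was 0.0026. Of 124 named genes that were called, 65 had several probes, of which 19 had every probe called in the same direction, 46 had some probes not called and none had a probe called the other way. The 2 groups did not overlap for 1624 genes higher in the AV node (9.17%) and 1671 genes lower (9.43%).

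**Figure D2:**
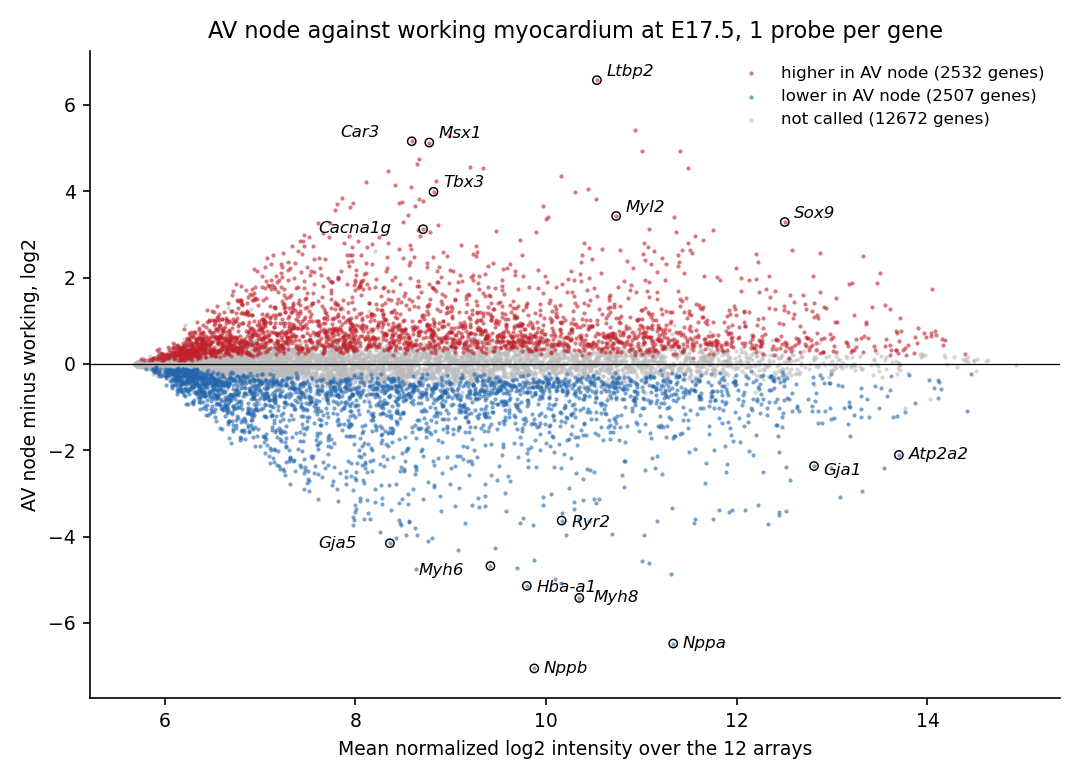
Difference between AV node and working myocardium (log2) against the mean normalized log2 intensity over the 12 arrays, 1 point per gene, for 2532 genes called higher, 2507 called lower and the genes not called. Circles mark named genes, from Ltbp2 at 6.57 to Nppb at -7.05.

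**Figure D3:**
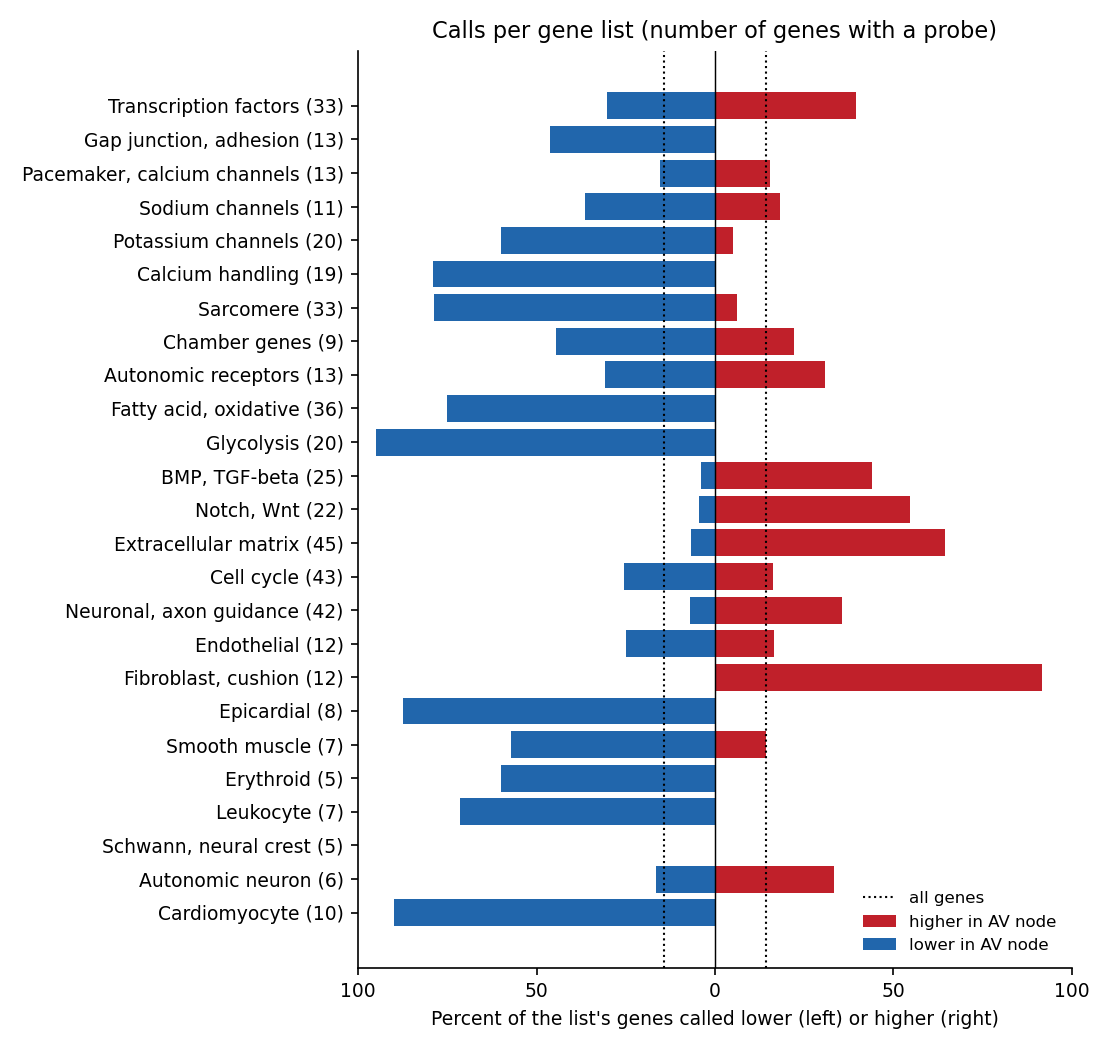
Percent of each list's genes with a probe (number in brackets) that were called higher (right) or lower (left) in the AV node, with the shares of all 17711 genes as dotted lines (14.3% and 14.2%). Sarcomere, calcium handling, oxidative and glycolytic lists lie almost wholly on the left and the matrix and fibroblast lists on the right.

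The 2 genes whose loci drive the reporters came out as the labels state, which checks the sort and is no finding. Tbx3 was at 10.32, 10.89 and 11.17 (lowest, median, highest) on AV node arrays, against 6.34, 6.68 and 7.80 on working arrays. All 6 AV node arrays lay above all working arrays, a difference of 3.99 ± 0.24 or 15.9-fold (adjusted p = 2.5e-07), and the highest working value was that of array 4. Nppa, which encodes atrial natriuretic peptide, was at 6.67, 6.59 and 6.43 on AV node arrays 1 to 3 and 9.37, 8.63 and 10.88 on AV node arrays 4 to 6, against 14.43 to 14.78 (median 14.57) on working arrays. The groups did not overlap, and the difference was -6.48 ± 0.69 (adjusted p = 2.5e-05). It came to -7.93 in replicates 1 to 3 alone and -5.20 in replicates 4 to 6 alone.

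Of the 9 chamber genes listed, Nppa included, 4 fell, 2 rose and 3 were not called, with a median of 0.03. In replicates 1 to 3 alone 4 fell and 1 rose, and in replicates 4 to 6 alone 3 fell and none rose. Nppb, the gene of B-type natriuretic peptide and the neighbour of Nppa on chromosome 4, was at 5.97 to 6.88 (median 6.23) on AV node arrays, where 3 of 6 were above background, and at 13.15 to 13.54 (median 13.44) on working arrays. Its difference of -7.05 ± 0.16 (adjusted p = 8.5e-11) was the most negative of all genes that met the naming rule. Of the 2 groups, only the working samples carried the Nppa reporter construct. The part of that construct in the Nppa and Nppb values was not tested. Gja5, which encodes the fast-conducting gap junction protein connexin 40, was at 6.11 to 6.67 (median 6.22) on AV node arrays and 9.51 to 10.93 (median 10.62) on working arrays. The difference was -4.15 ± 0.22 (adjusted p = 8.8e-08). Only 1 AV node array was above background, so the size is limited by background and may be larger. The same holds for Abcc8, Alas2, C1qb, Des, Krt8, Rasd2, Rspo3 and Upk3b below, each with 1 or 2 arrays of the dim group above background. The risers were the Hairy-related repressors Hey1 and Hey2, by small amounts (0.47 and 0.21, adjusted p = 0.024 and 0.0019). Hey2 was above background on 1 AV node array and no working array. The call of Hey1 was lost under several settings, with adjusted p up to 0.24.

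The promoters of these 3 chamber genes are shown because that of Nppa holds the best-known pair of T-box and NKX2-5 elements. They are RefSeq sequences of build GRCm38.p6, plus strand, 5′ to 3′, from 250 bases before to 50 after the start. Capitals mark the T-box element AGGTGTGA, searched on both strands, which here reads as its reverse complement.
Nppa, chr4:148000472-148000771: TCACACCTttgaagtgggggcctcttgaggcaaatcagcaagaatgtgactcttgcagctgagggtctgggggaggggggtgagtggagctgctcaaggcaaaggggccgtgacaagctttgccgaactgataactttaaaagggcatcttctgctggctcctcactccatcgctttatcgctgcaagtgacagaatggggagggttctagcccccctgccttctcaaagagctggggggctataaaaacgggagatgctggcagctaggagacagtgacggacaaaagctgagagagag
Nppb, chr4:147985650-147985949: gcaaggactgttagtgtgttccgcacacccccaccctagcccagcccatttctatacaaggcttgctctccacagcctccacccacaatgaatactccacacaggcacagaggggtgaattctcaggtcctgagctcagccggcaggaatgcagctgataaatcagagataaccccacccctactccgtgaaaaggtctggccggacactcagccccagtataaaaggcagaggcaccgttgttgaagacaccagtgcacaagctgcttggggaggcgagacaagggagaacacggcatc
Gja5, chr3:97032152-97032451: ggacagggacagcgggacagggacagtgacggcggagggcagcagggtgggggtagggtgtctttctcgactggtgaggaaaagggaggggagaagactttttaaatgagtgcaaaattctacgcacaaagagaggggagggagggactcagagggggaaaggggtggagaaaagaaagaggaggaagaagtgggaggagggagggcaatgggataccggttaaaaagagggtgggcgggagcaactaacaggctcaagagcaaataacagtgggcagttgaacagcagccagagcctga
Nppa has the element at bases 1 to 8 of this window, and an NKX2-5 element (TNAAGTG) at bases 10 to 16, separated by a single base. No match to either lies in the windows of Nppb and Gja5, which says only that these letters are not in these stretches. Of 32851 mouse promoters of the same length, 1.28% hold the T-box element and 11.5% the NKX2-5 element. A match is a description of letters and not of binding.

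**Figure D4:**
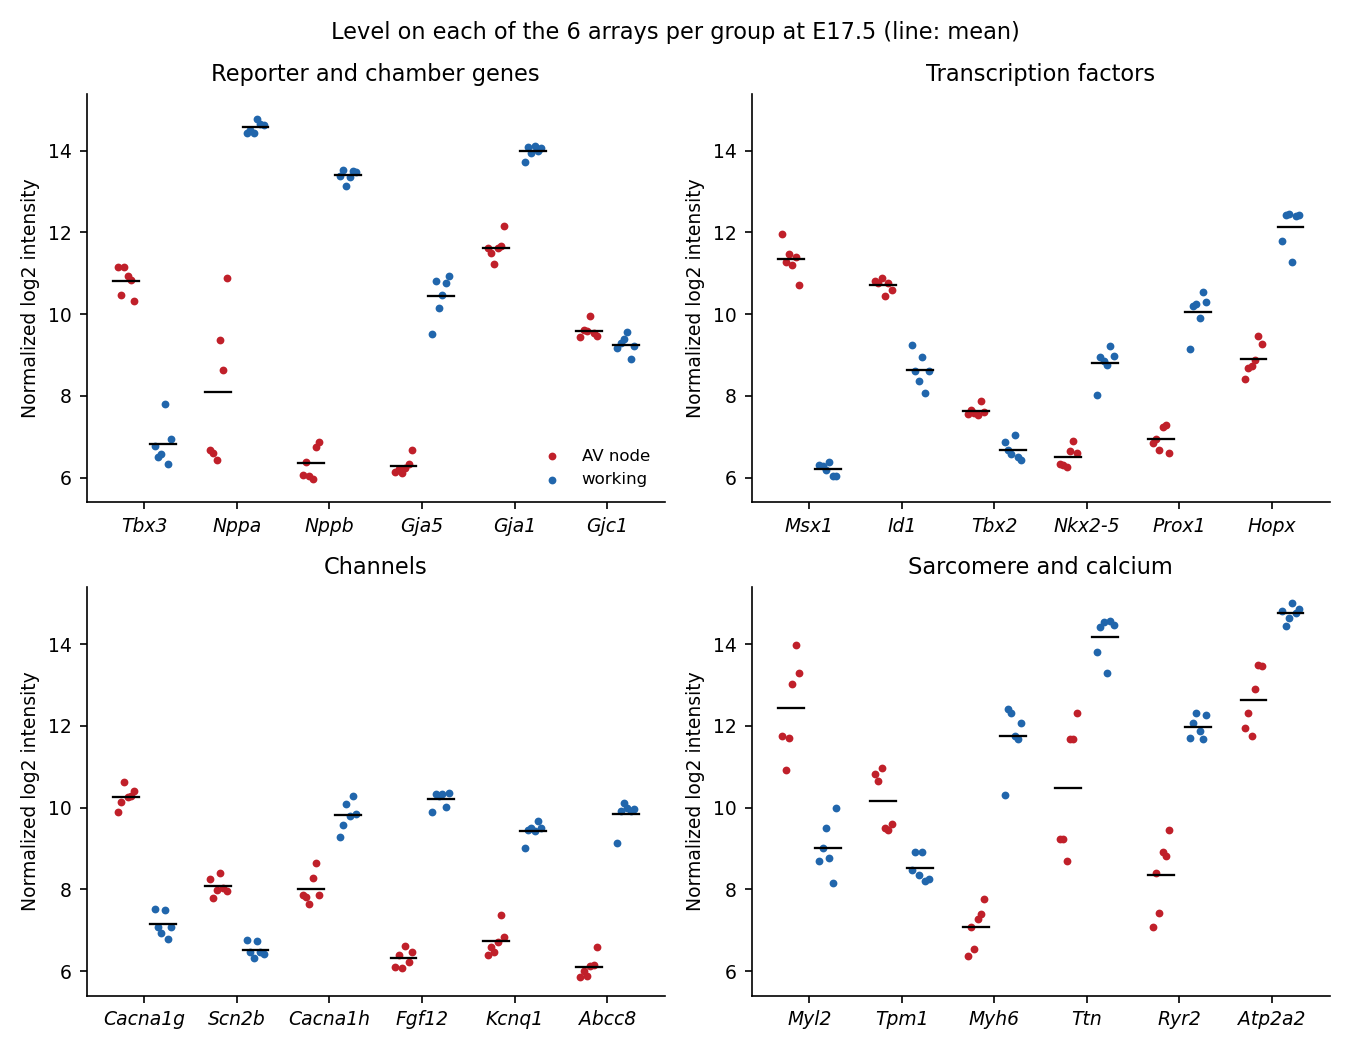
Normalized log2 intensity of 24 genes on each E17.5 array, AV node (left of each pair) and working myocardium (right), with a line at the group mean. Nppb, Gja5, Fgf12 and Abcc8 lie near the floor on AV node arrays, Msx1 lies there on working arrays, and AV node arrays split into a lower and a higher set for Nppa, Ttn and Myl2.

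Transcription factors of the conduction system and heart split into a higher and a lower set. Of 33 with a probe, 13 rose in the AV node, the reporter gene Tbx3 among them, and 10 fell, with a median of 0.21. Both shares were above those of all genes (14.3% and 14.2%). Of the 33, however, 25 were above background on all 6 arrays of a group. Among all genes so detected, 25.8% rose and 24.7% fell. Msx1, a homeobox repressor of the AV canal and its cushions, was at 10.72 to 11.95 (median 11.34) on AV node arrays and 6.04 to 6.39 (median 6.24) on working arrays. No working array was above background, so the AV node level was higher at least 31.4-fold (means 11.34 ± 0.40 in the AV node and 6.21 ± 0.14 in working myocardium, SD, adjusted p = 2.0e-09). Such bounds set the mean of the bright group against the lowest signal above background on the dim group's arrays. Its relative Msx2 was detected on all 6 AV node arrays and no working array, at least 1.17-fold higher (adjusted p = 7.1e-05).

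Tbx2, the T-box repressor of the AV canal, stood at 7.52 to 7.88 (median 7.60) on AV node arrays and 6.42 to 7.04 (median 6.63) on working arrays. The groups did not overlap, and Tbx2 rose by 0.96 ± 0.10 (adjusted p = 2.5e-05). Id1, an inhibitor of basic helix-loop-helix factors and a target of bone morphogenetic protein (BMP) signalling, stood at 10.44 to 10.89 (median 10.76) on AV node arrays and 8.06 to 9.25 (median 8.61) on working arrays, a rise of 2.07 ± 0.17 (adjusted p = 3.2e-06). Id2, which is needed for the ventricular conduction system in mice, rose by 1.26 ± 0.17 (adjusted p = 0.00019) without overlap. In replicates 1 to 3 alone it missed the threshold (difference 1.15, adjusted p = 0.055).

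Factors of differentiating heart muscle were among those that fell. Nkx2-5, the homeobox activator of cardiac genes, was at 6.27 to 6.90 (median 6.48) on AV node arrays and 8.03 to 9.22 (median 8.90) on working arrays. Every AV node value was below every working value (-2.28 ± 0.18, adjusted p = 2.2e-06). Smyd1, a muscle-specific histone methyltransferase, Hopx, a homeodomain cofactor that binds no DNA, and Prox1, needed for sarcomere assembly, fell by 3.64, 3.22 and 3.12 (adjusted p = 0.00019, 1.2e-06 and 7.0e-07). Tbx5, a T-box activator of Nppa and Gja5, was at 11.79 to 12.49 (median 12.40) on AV node arrays and 12.54 to 13.77 (median 13.38) on working arrays, a smaller difference of -0.98 ± 0.20 (adjusted p = 0.003). Its call was lost in replicates 4 to 6 alone (adjusted p = 0.19). Isl1, Shox2 and Tbx18, factors of the sinus node, had differences of 0.78 ± 0.31, 0.36 ± 0.19 and -0.12 ± 0.17 and were not called (adjusted p = 0.12, 0.27 and 0.77). Isl1 overlapped between groups, with 6.21 to 8.31 (median 6.89) on AV node arrays and 5.94 to 6.95 (median 6.07) on working arrays, and passed the threshold under 5 other settings (differences of 0.78 to 2.50).

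Cell-to-cell coupling genes were lower in the AV node or not called. Of 13 gap junction and adhesion genes, 6 fell and none rose, and 4 fell in replicates 4 to 6 alone. Without working arrays 1 and 4, 7 fell and 1 rose. Gja1, which encodes connexin 43 of working muscle, stood at 11.22 to 12.16 (median 11.62) on AV node arrays and 13.73 to 14.13 (median 14.04) on working arrays. That is a fall of 2.37 ± 0.13 with no overlap (adjusted p = 1.2e-07), although Gja1 stayed well above background in every AV node sample. The desmosome genes Dsg2 and Pkp2 fell by 3.97 and 2.78 (adjusted p = 4.9e-07 and 6.9e-07), and Dsg2 was above background on 3 AV node arrays. Gjc1, which encodes the low-conductance connexin 45 of the node, was at 9.43 to 9.95 (median 9.56) on AV node arrays and 8.91 to 9.57 (median 9.26) on working arrays. The ranges overlapped, and the difference of 0.34 ± 0.11 just missed the threshold (adjusted p = 0.051), which it passed under 9 other settings. Gjd3, another connexin of the mouse AV node, was below background on all AV node arrays and above it on all working arrays, where it was at least 1.12-fold higher (adjusted p = 0.0098). Its call was lost in replicates 1 to 3 and in replicates 4 to 6 taken alone.

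Among 13 pacemaker and calcium channel genes, 2 rose and 2 fell, close to the shares of all genes, with 4 lower without working arrays 1 and 4 and 3 lower in replicates 4 to 6 alone. The pair of T-type channel genes moved in opposite directions. Cacna1g, which encodes the Cav3.1 channel of nodal pacemaking, was at 9.90 to 10.63 (median 10.27) on AV node arrays and 6.79 to 7.53 (median 7.08) on working arrays, a rise of 3.12 ± 0.15 or 8.7-fold (adjusted p = 3.9e-08). Cacna1h, which encodes Cav3.2, was at 7.64 to 8.64 (median 7.86) on AV node arrays and 9.28 to 10.27 (median 9.82) on working arrays, a fall of 1.80 ± 0.19 (adjusted p = 2.7e-05). Neither gene's ranges overlapped. Of the auxiliary subunits, Cacnb1 rose by 0.75 ± 0.10 and Cacnb2 fell by 1.21 ± 0.19 (adjusted p = 0.00019 and 0.00061). The L-type channel gene Cacna1c was not called (-0.33 ± 0.12, adjusted p = 0.075), but passed in replicates 4 to 6 alone and without working arrays 1 and 4 (adjusted p = 0.01 and 0.025). Probes of Hcn2, Hcn4 and Cacna1d, 3 genes of the pacemaker currents, were not well above background on any of the 12 arrays, so nothing can be read about them.

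Sodium channel genes gave 2 rises and 4 falls of 11, with 1 higher and 3 lower in replicates 1 to 3 alone. Over all genes, 14.3% rose and 14.2% fell. Of the 11, 6 were above background on all 6 arrays of a group, and among all genes so detected 25.8% rose and 24.7% fell. The counts are too small to set this list apart. Scn2b, a regulatory subunit, was at 7.79 to 8.41 (median 8.02) on AV node arrays and 6.31 to 6.76 (median 6.47) on working arrays, a rise of 1.55 ± 0.11 (adjusted p = 8.3e-07). Fgf12, an intracellular fibroblast growth factor homologue that modulates sodium channels, was at 6.07 to 6.61 (median 6.31) on AV node arrays, 3 of them above background, against 9.90 to 10.35 (median 10.31) on working arrays. It fell by 3.89 ± 0.11 (adjusted p = 8.4e-10), and its relative Fgf13 fell by 2.48 ± 0.15 (adjusted p = 2.9e-07). Scn10a was below background on all AV node arrays and at least 1.61-fold higher in working myocardium (adjusted p = 0.00019). Scn7a rose by 0.83 ± 0.17 with overlap (adjusted p = 0.0043), and not in replicates 1 to 3 alone (adjusted p = 0.27).

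Of 20 potassium channel genes listed, 12 fell and 1 rose, with a median of -0.47, and 9 fell in replicates 1 to 3 alone and in replicates 4 to 6 alone. The wider family did not lean that way: of all 82 genes with symbols starting with Kcn, 16 fell and 13 rose, with a median of -0.012. Kcnq1, the pore of the slow delayed rectifier, was at 6.4 to 7.38 (median 6.66) on AV node arrays and 9.0 to 9.68 (median 9.48) on working arrays (-2.70 ± 0.16, adjusted p = 2.2e-07). Abcc8, the sulfonylurea receptor of atrial ATP-sensitive channels in mice, was at 5.87 to 6.58 (median 6.07) on AV node arrays and 9.14 to 10.11 (median 9.94) on working arrays (-3.74 ± 0.17, adjusted p = 2.7e-08), with 1 AV node array above background. Neither overlapped. The subunits of the acetylcholine-gated channel, Kcnj5 and Kcnj3, were both lower. Kcnj5 fell by 2.29 ± 0.24 (adjusted p = 2.3e-05). Kcnj3 was below background on all AV node arrays and above it on 4 of 6 working arrays, where it was at least 1.12-fold higher (adjusted p = 0.0012). The inward rectifier gene Kcnj2 was below background on all 12 arrays. The listed gene that rose was Kcnk6, a 2-pore channel gene, which rose by 0.94 ± 0.22 with overlap (adjusted p = 0.0086) and lost its call under 3 settings (adjusted p = 0.067 to 0.34).

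Receptors and G-protein genes of autonomic control gave 4 rises and 4 falls of 13, with 3 and 2 in replicates 4 to 6 alone. Over all genes, 14.3% rose and 14.2% fell. Of the 13, 9 were above background on all 6 arrays of a group, and among all genes so detected 25.8% rose and 24.7% fell. The counts are too small to set this list apart. The regulators of G-protein signalling Rgs5 and Rgs4 rose by 2.33 ± 0.27 and 1.00 ± 0.17 (adjusted p = 4.6e-05 and 0.00081). The inhibitory alpha subunit gene Gnai2 rose by 1.50 ± 0.13 without overlap, with 11.79 to 12.07 (median 11.89) on AV node arrays and 10.16 to 11.06 (median 10.35) on working arrays (adjusted p = 4.9e-06). Another subunit of that family, Gnao1, fell by 1.86 ± 0.29 (adjusted p = 0.00048). The angiotensin receptor gene Agtr1a and the endothelin receptor gene Ednrb fell by 1.30 and 1.25 (adjusted p = 1.6e-05 and 0.0062). Ednrb missed the threshold in replicates 1 to 3 and in replicates 4 to 6 alone (adjusted p = 0.056 and 0.19).

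Genes of calcium storage and release were mostly lower: 15 of 19 fell and none rose (median -1.20). In replicates 1 to 3 alone 12 fell and 1 rose, and in replicates 4 to 6 alone 12 fell. Ryr2, the calcium release channel of the sarcoplasmic reticulum, was at 7.09 to 9.46 (median 8.60) on AV node arrays and 11.67 to 12.31 (median 11.97) on working arrays. It fell by 3.63 ± 0.36, or 12.4-fold (adjusted p = 1.4e-05). The store proteins Hrc and Casq2 fell by 3.97 and 3.45 (adjusted p = 2.3e-05 and 0.00012). Atp2a2, the calcium pump, was at 11.74 to 13.48 (median 12.61) on AV node arrays and 14.44 to 15.02 (median 14.78) on working arrays and fell by 2.11 ± 0.29 (adjusted p = 0.00021). Its inhibitor phospholamban (Pln) fell by 3.13 ± 0.38 (adjusted p = 7.0e-05). AV node and working ranges did not overlap for any of these 5 genes.

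Sarcomere genes fell in 26 of 33 cases and rose in 2, with a median of -2.69. Myh6, the alpha myosin heavy chain, was at 6.38 to 7.77 (median 7.18) on AV node arrays and 10.30 to 12.41 (median 11.91) on working arrays, where array 1 had the lowest value. Its difference was -4.68 ± 0.35 (adjusted p = 1.5e-06), although only 1 of its 2 probes was called. Ankrd1, a titin-associated stress protein, and Mybphl, a myosin binding protein of conduction tissue and atrium, fell by 4.72 and 4.87 (adjusted p = 5.3e-07 and 4.5e-05). Myom2, an M-band protein, fell by 4.56 ± 0.53 (adjusted p = 4.8e-05). Myh8, the perinatal skeletal myosin heavy chain, fell by 5.42 ± 0.50 (adjusted p = 8.2e-06). Myosin heavy chains are close in sequence and their probes may share signal, which leaves the identity of Myh8 uncertain.

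AV node samples spread widely in such genes. Ttn (titin) was at 9.23, 9.23 and 8.70 on AV node arrays 1 to 3 and 11.69, 11.67 and 12.33 on arrays 4 to 6, against 13.29 to 14.56 (median 14.44) on working arrays. The sarcomere median was -3.11 in replicates 1 to 3 alone and -2.09 in replicates 4 to 6 alone, with 27 and 26 genes lower. Of the 2182 genes lower in the node and above background, 393 had AV node arrays 4 to 6 all above arrays 1 to 3, and 125 had them all below. Of the 2282 genes higher, 147 had them all above and 416 all below. Random order of the arrays alone would split some genes each way. No share over all genes was computed, so nothing is read from any of these counts, the larger ones included.

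Myl2 and Tpm1 went the other way. Myl2, the ventricular regulatory myosin light chain, was at 11.76, 10.93 and 11.71 on AV node arrays 1 to 3 and 13.03, 13.97 and 13.29 on arrays 4 to 6, against 8.17 to 9.98 (median 8.89) on working arrays. Every AV node array lay above every working array, a rise of 3.43 ± 0.50 or 10.8-fold (adjusted p = 0.0003), while the atrial light chain gene Myl7 fell by 3.44 ± 0.53 (adjusted p = 0.00049). The atrial or ventricular make-up of the working samples was not measured here, and its part in these 2 differences was not tested. Tpm1, alpha-tropomyosin, rose by 1.65 ± 0.29 (adjusted p = 0.0014) on 1 of its 2 probes, and AV node arrays 1 to 3 were its higher set (10.82, 10.65 and 10.97, against 9.51, 9.46 and 9.60 on arrays 4 to 6). Tropomyosin is also made outside muscle.

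Energy metabolism genes were lower in the AV node. Of 36 genes of fatty acid and oxidative metabolism, 27 fell and none rose (median -1.42). Of 20 glycolysis and glycogen genes, 19 fell and none rose (median -1.55). Ckm, the muscle creatine kinase, was at 7.24 to 10.45 (median 8.59) on AV node arrays and 12.99 to 13.69 (median 13.38) on working arrays (-4.62 ± 0.52, adjusted p = 3.9e-05). The muscle-type cytochrome oxidase subunits Cox8b and Cox7a1 fell by 3.68 and 3.59 (adjusted p = 4.1e-05 and 3.6e-05). In glycolysis the muscle isoforms led: Pgam2 (phosphoglycerate mutase) fell by 3.41 and Eno3 (beta-enolase) by 3.33 (adjusted p = 0.00017 and 1.4e-05). Aldoc, an aldolase, was at 6.45 to 7.03 (median 6.80) on AV node arrays and 9.08 to 9.97 (median 9.74) on working arrays, a fall of 2.89 ± 0.15 (adjusted p = 9.6e-08). None of these 6 genes overlapped between groups. Replicates 1 to 3 and replicates 4 to 6 alone left 24 and 25 genes lower in the oxidative list, and 18 in the glycolytic list each time.

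Of the 12 genes with the largest rises, 6 are described here and the others below or with the transcription factors. Ltbp2, which binds fibrillin microfibrils, was at 13.58 to 13.97 (median 13.81) on AV node arrays and 6.32 to 8.27 (median 7.07) on working arrays (6.57 ± 0.30, 95.2-fold, adjusted p = 3.0e-08), although 1 of its 3 probes was called. Matn4 and Prelp, a matrilin and a small leucine-rich proteoglycan of cartilage and connective tissue, rose by 4.94 ± 0.31 and 4.92 ± 0.28 (adjusted p = 4.2e-07 and 1.7e-07). Papss2, which makes the sulfate donor for proteoglycans, rose by 4.54 ± 0.28 (adjusted p = 2.9e-07). Rspo3, a secreted enhancer of Wnt signalling, was at 10.73 to 11.27 (median 11.06) on AV node arrays and 6.12 to 6.38 (median 6.31) on working arrays, with 1 working array above background (4.76 ± 0.09, adjusted p = 1.4e-11). Bmper, a secreted modulator of BMP signalling, rose by 4.56 ± 0.16 (adjusted p = 4.4e-09).

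Besides Msx1, 5 more genes completed the 12 largest rises. Prss35, a serine protease homologue, Btn1a1, a butyrophilin of milk fat membranes, Rasd2, a small GTPase, and Scara3, a scavenger receptor, rose by 5.42, 5.28, 4.63 and 4.55 (adjusted p = 3.0e-08, 3.5e-08, 4.1e-07 and 6.5e-09). Car3, a carbonic anhydrase, was below background on all working arrays and higher in AV node cells by at least 27.9-fold (means 11.17 ± 0.15 in the AV node and 6.01 ± 0.05 in working myocardium, SD, adjusted p = 3.0e-13). Its AV node values of 10.98 to 11.33 (median 11.22) lay close together.

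Of 25 BMP and transforming growth factor beta genes, 11 rose and 1 fell (median 0.11), and 10 rose in replicates 1 to 3 alone and 7 in replicates 4 to 6 alone. Without working arrays 1 and 4 the counts were 11 and 2 (median 0.42). Bmp4 was at 12.14 to 12.41 (median 12.23) on AV node arrays and 9.52 to 10.43 (median 9.79) on working arrays (2.41 ± 0.13, adjusted p = 1.3e-07), and Tgfb3 and the follistatin-like Fstl1 rose by 2.09 ± 0.15 and 1.31 ± 0.12 (adjusted p = 8.4e-07 and 6.2e-06). The fall was that of Bmp7, another ligand of the family, at 6.22 to 7.17 (median 6.66) on AV node arrays and 9.04 to 10.39 (median 10.04) on working arrays (-3.24 ± 0.22, adjusted p = 6.1e-07). Bmp2, the ligand of the early AV canal, was below background on all 12 arrays.

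Of 22 Notch and Wnt pathway genes, 12 rose and 1 fell (median 0.71), and 10 rose in replicates 1 to 3 alone and 8 in replicates 4 to 6 alone. Without working arrays 1 and 4, 2 fell. Heyl, a Notch target, was at 8.97 to 9.49 (median 9.24) on AV node arrays and 6.39 to 7.29 (median 6.53) on working arrays, a rise of 2.52 ± 0.16 (adjusted p = 5.1e-07). Axin2, a target and inhibitor of canonical Wnt signalling, rose by 1.95 ± 0.12 (adjusted p = 2.8e-07). Sfrp2, a secreted Wnt modulator, was below background on all working arrays and higher in AV node cells by at least 3.96-fold (adjusted p = 2.2e-07). The Notch ligand gene Jag2 fell by 0.41 (adjusted p = 0.0036), a call lost in replicates 4 to 6 alone.

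Extracellular matrix genes rose in 29 of 45 cases and fell in 3 (median 1.42), with 22 higher and 2 lower in replicates 1 to 3 alone and 26 and 1 in replicates 4 to 6 alone. Has2, the hyaluronan synthase of the cardiac cushions, was at 9.97 to 10.98 (median 10.57) on AV node arrays and 6.48 to 7.15 (median 6.71) on working arrays, a rise of 3.82 ± 0.16 (adjusted p = 2.2e-08). The microfibril genes Mfap4 and Mfap2 rose by 3.35 ± 0.26 and 3.12 ± 0.25 (adjusted p = 1.8e-06 and 2.3e-06). The collagen IV genes of the list were lower, with Col4a1 at -0.57 ± 0.09 and Col4a2 at -0.36 ± 0.11 (adjusted p = 0.0004 and 0.033). The Col4a2 call was lost without working arrays 1 and 4 (difference -0.22, adjusted p = 0.081) and under 8 other settings. Comp, a cartilage matrix glycoprotein, fell by 1.91 ± 0.27 (adjusted p = 0.00028). The mesenchymal markers that rose beside these genes were led by Sox9, the cartilage and valve transcription factor, at 14.06 to 14.25 (median 14.13) on AV node arrays and 10.28 to 11.62 (median 10.66) on working arrays (3.29 ± 0.22, adjusted p = 6.5e-07). Lum (lumican) rose by 3.10 ± 0.27 (adjusted p = 5.2e-06), and Scx (scleraxis, a tendon and valve factor) was at least 7.03-fold higher, with no working array above background (adjusted p = 5.7e-09). That marker list shares 6 genes with the matrix list, and its part in the matrix result was not tested.

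Neuronal and axon guidance genes gave 15 rises and 3 falls of 42, with a median near 0 (0.05). Robo1, a receptor for Slit guidance cues, was at 9.77 to 10.52 (median 10.11) on AV node arrays and 6.84 to 8.0 (median 6.95) on working arrays (2.96 ± 0.22, adjusted p = 1.1e-06), on 1 of its 4 probes. The ligand gene Slit3 was lower by all 3 of its probes, at 7.13 to 8.35 (median 7.55) on AV node arrays and 9.93 to 10.45 (median 10.14) on working arrays (-2.53 ± 0.20, adjusted p = 2.7e-06). Gdnf, a neurotrophic factor for autonomic neurons, was below background on all working arrays and higher in AV node cells by at least 5.69-fold (adjusted p = 1.3e-10), and the neurotrophin receptor gene Ngfr rose by 2.22 ± 0.18 (adjusted p = 2.9e-06). The ephrin receptor gene Epha4 and the synaptic gene Cplx1 fell by 1.39 and 0.96 (adjusted p = 4.4e-05 and 0.0062). Beside them stood 6 markers of autonomic neurons, summed at 500 to 1011 on AV node arrays and 437 to 468 on working arrays, of which 2 rose and 1 fell. The fall was that of Dbh (adjusted p = 0.00026), which was below background on all AV node arrays and above it on 2 working arrays. Th, Tubb3 and Elavl4 were not called. Stmn2, a neuronal tubulin regulator, was detected on all AV node arrays and no working array, at least 2.2-fold higher (adjusted p = 0.0031). AV node array 4 held its highest value (9.12), and the call was lost in replicates 4 to 6 alone, as was that of Phox2a (at least 1.23-fold, adjusted p = 0.0024). In replicates 4 to 6 alone, 7 of the 42 neuronal genes rose and 2 fell. The part of neurons in these values was not tested.

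The cell cycle list did not lean clearly to either side, with 7 of 43 genes higher, 11 lower and a median of -0.04. Ccnd1 (cyclin D1) was at 11.70 to 12.37 (median 12.04) on AV node arrays and 9.80 to 11.26 (median 10.17) on working arrays (1.67 ± 0.22, adjusted p = 0.00012), by 2 of its 5 probes. Ccnd2 (cyclin D2) and Ccne1 (cyclin E1) fell by 0.59 and 1.03 (adjusted p = 0.0048 and 0.00018), with 1 of 4 Ccnd2 probes called. The inhibitor gene Cdkn1c fell by 1.23 ± 0.16 and Rrm2 (ribonucleotide reductase) by 0.93 ± 0.15 (adjusted p = 0.00016 and 0.00073). The mitotic genes Cenpe and Nusap1 rose by 0.72 ± 0.15 and 0.64 ± 0.14 (adjusted p = 0.0041 and 0.0065). Replicates 1 to 3 alone left 2 genes higher and 5 lower, replicates 4 to 6 alone 5 and 6, and median scaling left 3 and 4.

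Markers of further cell types were counted as well. Of 12 endothelial and endocardial markers, 2 rose and 3 fell, with 1 lower in replicates 4 to 6 alone and 2 in replicates 1 to 3 alone or without working arrays 1 and 4. All 12 were above background on all 6 arrays of at least 1 group. Among all genes so detected, 25.8% rose and 24.7% fell, so these counts do not set the list apart. Cldn5, a tight junction gene, and Nfatc1, the transcription factor of valve endocardium, rose by 2.49 ± 0.35 and 1.60 ± 0.14 (adjusted p = 0.00025 and 6.1e-06), while Emcn, Plvap and Tie1 fell by 1.76, 1.52 and 0.87 (adjusted p = 0.0016, 0.0028 and 0.024). Tie1 was not called in replicates 1 to 3 alone, in replicates 4 to 6 alone or without working arrays 1 and 4 (adjusted p = 0.063, 0.45 and 0.082). Of 8 epicardial and mesothelial markers, 7 fell and none rose, and 5 fell in replicates 1 to 3 alone and 4 in replicates 4 to 6 alone. Upk3b (uroplakin 3B) was at 6.00 to 6.78 (median 6.12) on AV node arrays, 2 of them above background, and 10.19 to 12.16 (median 10.85) on working arrays (-4.75 ± 0.32, adjusted p = 6.8e-07). Msln (mesothelin) and Krt8 (keratin 8) fell by 4.03 and 2.55 (adjusted p = 5.1e-06 and 0.00027). Without working arrays 1 and 4, Upk3b differed by -4.33.

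Of 7 smooth muscle markers, 4 fell and 1 rose, with 3 lower and none higher in replicates 4 to 6 alone. Acta2, smooth muscle actin, which fetal cardiomyocytes also make, fell by 0.90 ± 0.07 (adjusted p = 3.0e-06), Des (desmin) by 2.15 ± 0.19 (adjusted p = 5.5e-06), and Tagln rose by 0.81 ± 0.20 with overlap (adjusted p = 0.011). Cnn1 was below background on all AV node arrays and at least 1.05-fold higher in working myocardium (adjusted p = 0.018). Leukocyte markers fell in 5 of 7 cases. The macrophage complement genes C1qb and C1qa were lower, C1qb by 3.54 ± 0.34 and C1qa at least 4.78-fold (adjusted p = 1.0e-05 and 1.1e-05). Laptm5, a lysosomal protein of blood cells, fell by 4.55 ± 0.46 (adjusted p = 1.8e-05).

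Of 5 erythroid markers 3 fell, and none was called in replicates 4 to 6 alone. Hba-a1 (alpha globin) was at 6.34 to 9.16 (median 6.47) on AV node arrays, against 14.03 and 14.27 on working arrays 1 and 4 and 11.08, 12.05, 10.89 and 11.90 on the other working arrays. The difference was -5.14 ± 0.72 (adjusted p = 0.00023), or -4.26 without working arrays 1 and 4, and was not called in replicates 4 to 6 alone (adjusted p = 0.068). The beta globin genes Hbb-bs and Hbb-bt differed by -5.09 ± 0.77 and -4.99 ± 0.78 (adjusted p = 0.00042 and 0.00052), and their near-identical copies cannot be told apart by probe. Alas2, the haem synthesis enzyme of red cells, fell by 2.17 ± 0.57 (adjusted p = 0.017) and lost its call in replicates 1 to 3 and in replicates 4 to 6 alone. The part of blood in other genes' differences was not tested.

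Last, each named difference was set beside that between AV canal and working myocardium at E10.5, in a fit of all 24 arrays. E17.5 differences below are those of the 12-array fit given above, and E10.5 differences and changes are those of the 24-array fit, so a change need not equal the difference of the printed values. Detection above background was assessed on the E17.5 arrays only. A small E10.5 difference below therefore need not mean equal expression, since both tissues may have been near background at that stage. Over all genes, 14.8% had tissue differences that changed with stage. Of the 2 reporter genes and the 24 genes with the largest differences, together 25 genes, 20 did so, but their E17.5 values had chosen them. Nppb differed by -7.05 at E17.5 and by -3.20 at E10.5 (change -4.18 ± 0.37, adjusted p = 2.9e-08). Msx1 was already 3.69 ± 0.23 higher in the AV canal at E10.5 (adjusted p = 6.9e-10), and Gja5 already differed by -3.59 ± 0.21 (adjusted p = 3.4e-10), with no called change by E17.5 (-0.85 ± 0.30, adjusted p = 0.092), where background limits the E17.5 level. Sox9 and Id1 had E10.5 differences of 3.59 ± 0.42 and 2.05 ± 0.20, beside E17.5 differences of 3.29 and 2.07. The changes were -0.25 ± 0.59 and 0.04 ± 0.28 (adjusted p = 0.9 and 0.97).

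Cacna1g, Fgf12 and Abcc8, all 3 channel genes or channel partners, separated more at the later stage. Cacna1g differed by 0.87 ± 0.25 at E10.5 (change 2.37 ± 0.35, adjusted p = 5.5e-05), Fgf12 by -0.59 ± 0.11 (change -3.58 ± 0.15, adjusted p = 2.1e-13) and Abcc8 by -0.88 ± 0.17 (change -3.20 ± 0.24, adjusted p = 2.5e-09). Rasd2, Myh8, Myom2 and Ankrd1 were not called at E10.5 (differences of 0.12, -0.02, -0.05 and -0.25), and their changes were 4.78, -5.57, -4.59 and -4.60 (adjusted p = 9.8e-10, 1.1e-06, 6.8e-06 and 2.1e-08). Myl2 was likewise not called at E10.5 (0.18 ± 0.37, change 3.29 ± 0.53, adjusted p = 0.00013). Tpm1 was already 1.71 ± 0.37 higher in the AV canal at E10.5, with no called change.

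**Figure D5:**
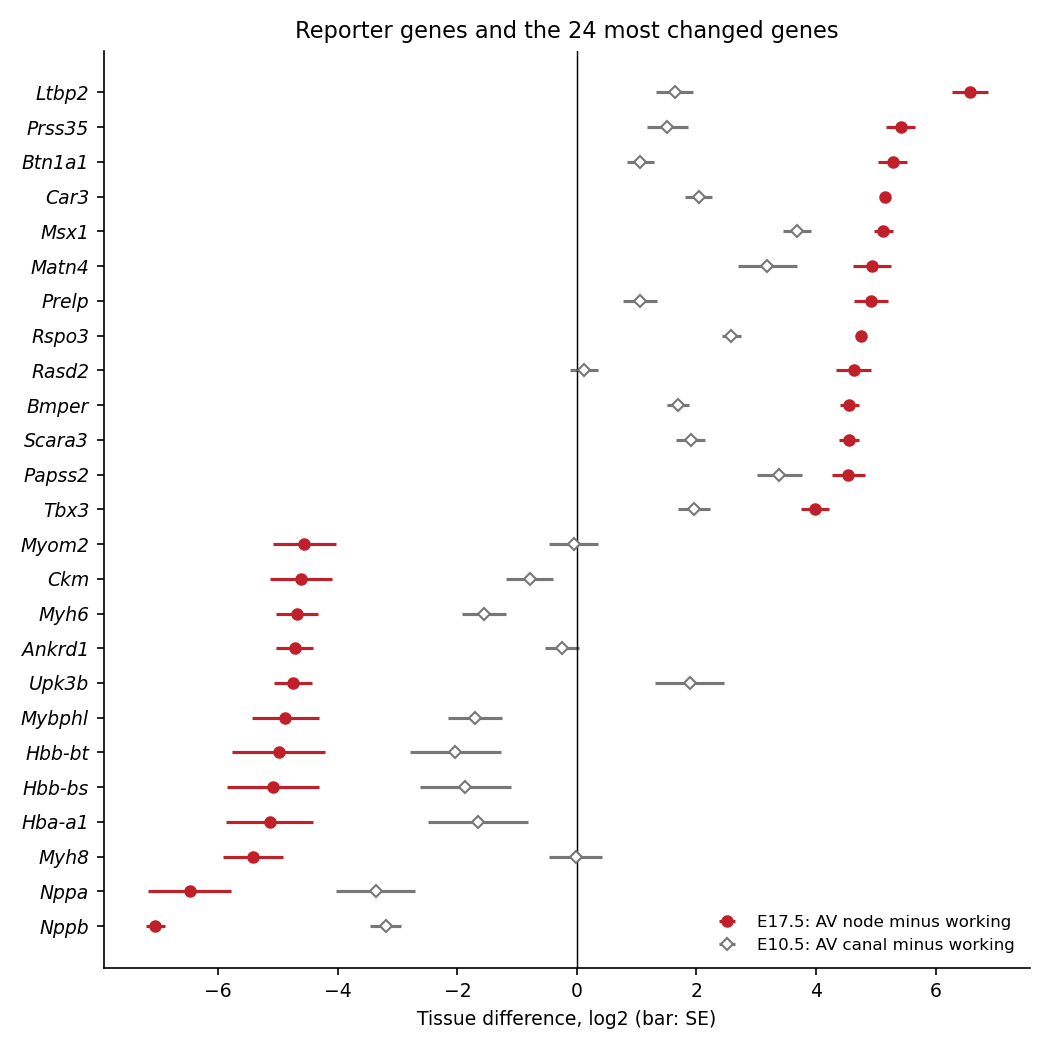
Tissue difference (log2, bars are standard errors) of 25 genes: AV node minus working at E17.5 from the fit of 12 arrays (filled) and AV canal minus working at E10.5 from the fit of 24 arrays (open). Msx1, Matn4 and Papss2 lie far right at both stages, and Myh8, Myom2 and Ankrd1 lie near 0 at E10.5.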

How the data were processed

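The authors deposited a table of unprocessed bead intensities for all arrays and a table of processed values. Per the file headers these intensity columns carry no normalization, and the deposited processed values behave as log2 values: their columns have medians of 3.91 to 4.11 and follow the matching array's intensities in rank (Spearman 0.999994 to 1 for 12 of 12 columns). Their background correction and normalization are not stated, and the submitters' processing notes name only limma, without a version. Log2 differences computed here were 0.81 times those of that table (regression slope over probes above background on all 12 arrays).

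From the intensities of the 12 E17.5 arrays, background was corrected by normexp (offset 50), values were log2 transformed and quantile normalized between arrays, and duplicate probe rows averaged (limma 3.58.1, R 4.3.3). A 2-group model with empirical Bayes variances was fitted to 46632 probes. Without detection p-values, a probe counted as above background when its raw log2 intensity exceeded the array's mode by 3 SD of the lower side. Where a group lay below background on all 6 arrays, the fold is a bound. The fit was tested on simulated data.

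Gene names came from the platform annotation: 29976 probes had 1 gene symbol, 10 had several and the other probes none, and 29921 of the named ones matched RefSeq (GRCm38.p6) by gene ID. The brightest probe stood for each of 17711 genes. Named genes were Tbx3, Nppa, the 12 largest rises and 12 largest falls among called genes without overlap, up to 6 called members per list, and a set of genes known in conduction. The lists and members were chosen with earlier results of these data known, and the lists are described by counts and medians without a set test. Promoters are RefSeq's. Replicate numbers were not used to pair the samples, since the labels give no such pairing. Same-number correlations were -0.03 to 0.25, over 0.1 for 3 of 6. No slide or scan batch is labelled at E17.5.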

Additional observations from a re-analysis of the deposited data

Results flagged for a closer look

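Single arrays that stood apart from the other 5 of their group were looked for among the named genes, in 243 combinations of gene and group. A gap to the nearest array beyond Dixon's limit for 6 values was found in 17, where chance gives about 1 in 20, or 12.2. In 7 of them the array was working array 1. It was low for the muscle genes Myh6 (10.30), Hrc (11.47), Des (7.47) and the channel genes Abcc8 (9.14) and Cacna1c (6.65), and high for Gnai2 (11.06) and Fstl1 (12.72). Working array 1 also had the lowest cardiomyocyte sum of its group and the highest mesenchymal sum, and their part in these values was not tested. Working array 4 stood apart for Isl1 (6.95) and Cnn1 (6.98), working array 5 for Myl7 (13.87) and working array 6 for Rasd2 (6.60). Among AV node arrays, array 4 was high for Stmn2 (9.12), Rgs4 (8.54) and Gjc1 (9.95), array 2 high for Hey2 (6.33) and low for Tbx5 (11.79), and array 6 low for Matn4 (13.13).

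Tissue differences that changed between stages were the other pattern, each given as the E17.5 difference minus the E10.5 difference in the fit of 24 arrays, with an adjusted p under 0.05. Among genes named for their size at E17.5, the change was positive for Ltbp2 (5.13), Rasd2 (4.78), Btn1a1 (4.50), Prss35 (4.01), Prelp (3.95), Car3 (3.49), Bmper (3.03), Scara3 (2.71), Rspo3 (2.45), Tbx3 (2.21) and Msx1 (1.75). It was negative for Upk3b (-6.93), Myh8 (-5.57), Ankrd1 (-4.60), Myom2 (-4.59), Nppb (-4.18), Ckm (-3.91), Myh6 (-3.29), Mybphl (-3.27) and Nppa (-3.23). Matn4, Papss2 and the 3 globin genes showed no called change.

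A further 8 genes, and Upk3b, were called at both stages in opposite directions. Emcn, Plvap and Tie1, all endothelial, were higher in the AV canal at E10.5 (by 1.78, 1.83 and 0.85) and lower in the AV node at E17.5, with changes of -3.55, -3.41 and -1.78. The same turn was seen for Ednrb (1.81 at E10.5, change -3.07), Epha4 (0.58, change -2.06), Acta2 (0.32, change -1.21) and Upk3b (1.88 at E10.5). Tagln and Hey2 turned the other way, from -0.71 and -0.96 at E10.5 with changes of 1.56 and 1.24.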

How the results depend on the processing

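Counts of called probes were recomputed under 26 other settings, and no called difference of the 134 named genes changed sign. Probes called higher ran from 3161 (median scaling) to 5040 (all 24 arrays together) and probes called lower from 2797 (replicates 1 to 3 alone) to 4746 (array weights), apart from replicates 4 to 6 alone, where 2158 were higher and 2167 lower. That setting has 3 arrays per group in place of 6. Leaving out each array in turn gave 3887 to 4432 probes higher and 3621 to 4350 lower. Without working arrays 1 and 4, 4544 were higher and 4719 lower. Of the calls, 49.1% to 54.4% were higher under every setting run. The authors' processed values gave 2535 probes at least 2-fold higher and 2716 lower, against 1152 and 1262 here. With a normexp offset of 16 in place of 50, these counts were 1519 and 1699, so the 2-fold counts depend on the processing. The cause of the gap to the authors' values was not tested. With the replicate number as a block, 4166 probes were higher and 3969 lower. The numbers were not taken to pair these samples, since the labels give no pairing, although 3 of 6 same-number correlations were over 0.1. Of 12 samples, 5 correlated best with their own number, a hint of shared variation that the labels do not record. Over the named genes and all settings, 59 comparisons lost a call and 26 gained one, 24 of the losses in replicates 4 to 6 alone and 11 in replicates 1 to 3 alone. The filter on dim probes left 10 named genes with no value. The number of genes whose tissue difference changed with stage was 2613, or 1691 under median scaling and 2828 with array sets as a block, both chosen after seeing the data, as were the subsets of arrays. Of the 28 genes flagged above for a closer look because of such a change, Msx1 alone lost its call under median scaling. The changes of Cacna1g, Fgf12, Abcc8 and Myl2 were not part of that check. Probes near background carry little information on size, and 6503 genes were at background on all 12 arrays.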

Other observations

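Outside the lists, gene families were counted by the start of their symbols, chosen after their values were seen, so these counts are a description. Over all genes, 14.3% were called higher and 14.2% lower. Among the 8838 genes above background on all 6 arrays of at least 1 group, the shares were 25.8% and 24.7%. Mitochondrial ribosome and respiratory chain genes were lower as blocks. Of 76 mitochondrial ribosomal protein genes (Mrpl and Mrps), 55 were called lower and 1 higher in the AV node (median difference -0.62), and of 41 complex I subunit genes (Nduf), 35 were lower and none higher (median -1.02). Ndufa5 differed by -1.76 ± 0.15 and Mrpl42 by -1.82 ± 0.17. Cytosolic ribosomal protein genes did not follow them: of 46, 10 were higher and 1 lower (median 0.18), with Rps13 at 0.58 ± 0.14. Their share of higher genes lay between the 14.3% and the 25.8% given above. Collagen genes split, 21 of 39 higher and 6 lower. Col2a1 and Col9a1, collagens of cartilage, were higher in AV node cells by at least 7.34-fold and 4.46-fold, with no working array above background (adjusted p = 2.2e-08 and 7.8e-07). At E10.5 they differed by -0.80 and 1.51. Of 18 Wnt ligand genes, 6 were higher and none lower, led by Wnt16 and Wnt9b, at least 4.09-fold and 3.51-fold (adjusted p = 6.6e-06 and 9.7e-07).

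Some genes were detected in all samples of a single group. Every AV node array and no working array was above background for 118 genes called higher, and the reverse held for 134 genes called lower. Npy, which encodes the co-transmitter neuropeptide Y, was higher in AV node cells by at least 14.5-fold (means 10.22 ± 0.48 in the AV node and 6.01 ± 0.08 in working myocardium, SD, adjusted p = 2.4e-08). Sall3, a zinc finger transcription factor, was at least 18.5-fold higher (adjusted p = 2.1e-09) and already differed by 2.39 at E10.5. The potassium channel genes Kcna6 and Kcnj15 were higher by 4.04 ± 0.28 and 3.64 ± 0.19 (adjusted p = 7.5e-07 and 9.6e-08), outside the list of potassium channel genes. Kcnj15 was above background on 1 working array. In working myocardium alone, Ckmt2, the sarcomeric mitochondrial creatine kinase, was at least 7.05-fold higher than in the AV node (adjusted p = 4.1e-07).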
